A study of Hevea brasiliensis with 6 samples.

Results

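The 100 most abundant unigenes of unchilled leaves of the rubber tree (Hevea brasiliensis) were followed through cold stress in 2 clones. A unigene is an assembled transcript sequence, and 167072 of them were counted. The 100 members were chosen from the fragment counts of the control libraries of both clones: each count was divided by the total of its library, the shares of ‘Reken501’ and ‘93-114’ were averaged, and the unigenes of ranks 1 to 100 were taken. The cold libraries took no part in the choice. Values of the control libraries, and every ratio that holds one of them, are therefore given as a description of the members and not as a test.

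Leaves came from one-year-old plants with 2 extension units of ‘Reken501’, described by the study as cold-sensitive, and of ‘93-114’, described as cold-resistant. Control plants of each clone stood at 28 °C without cold stress, and the others were kept at 4 °C for 1 h or for 24 h. The RNA of a library came from 9 pooled leaves, 3 of each of 3 trees, and each of the 6 combinations of clone and treatment has 1 library. There is thus no replicate check on any difference: the intervals below are at the 95% level and cover counting error only, and the spread between trees is unknown. The library totals lay between 20.4 and 21.9 M fragments, and every member had at least 84 fragments in each library.

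In green leaves, a small number of genes usually supplies much of the messenger RNA. The most abundant nuclear transcripts typically encode proteins of photosynthesis, such as the small subunit of Rubisco, which takes part in carbon fixation, and the chlorophyll a/b-binding proteins that harvest light. Because each library is read to a similar depth, the share of one transcript is relative to all others: a larger share for abundant transcripts leaves a smaller one for the rest. In leaf RNA, fewer cells of a type and less RNA per cell cannot be told apart. Gene names are missing from the tables, and 0 of the 167072 IDs matched an ID of the 50196 genes of the RefSeq annotation, so no role is given to any member, the labelled tissue could not be checked against leaf markers, and members are grouped by level, cluster and pattern.

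Together the members, 100 of 167072 unigenes, held 31.7% of the fragments of control ‘Reken501’ and 30.8% of those of control ‘93-114’. Under cold stress ‘Reken501’ reached 34.3% (1 h) and 35.0% (24 h), and ‘93-114’ reached 41.6% and 42.1%. The share was higher in each cold library than in the control of the same clone, and the gain in ‘93-114’ was 10.9 percentage points at 1 h and 11.3 at 24 h against 2.54 and 3.28 in ‘Reken501’. The widest interval of these shares reached 0.021 percentage points to either side.

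The unigenes next in rank did not gain in the same measure. The next 900, those that follow the members down to rank 1000 of the same control average, held 21.2%, 20.8% and 20.7% in the control, 1 h and 24 h libraries of ‘Reken501’ and 20.9%, 23.0% and 22.5% in those of ‘93-114’. In this order (control, 1 h, 24 h) all values of a clone are given below. The remaining unigenes held 48.3% of control ‘93-114’ and 35.4% of both of its cold libraries, while in ‘Reken501’ they held 47.1%, 44.9% and 44.2%. Within the members, the first 10 ranks alone held 13.9%, 16.1% and 14.9% in ‘Reken501’ and 12.6%, 17.5% and 17.5% in ‘93-114’. In each library, 12 to 16 members supplied 50% of the members' fragments.

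**Figure D1:**
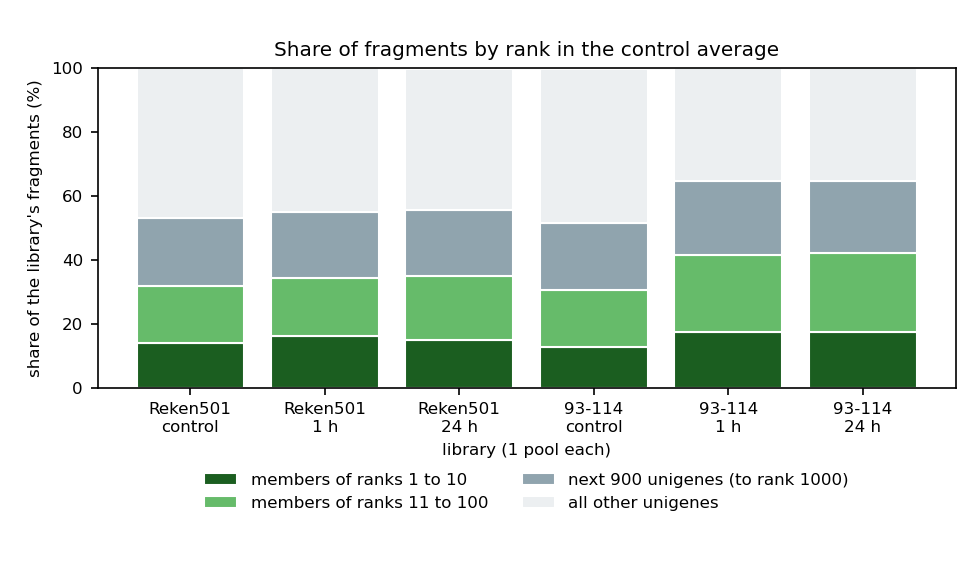
Share of each library's fragments (%, vertical axis) held by the members of ranks 1 to 10, the members of ranks 11 to 100, the next 900 unigenes, which end at rank 1000, and all other unigenes, in the 6 libraries of 1 pool each. The members reach 41.6% and 42.1% in cold ‘93-114’ and lie between 30.8% and 35.0% in the other 4 libraries.

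The gains were unevenly spread over the members in both clones. In ‘93-114’ after 1 h, CL13428.Contig1_All added 2.39 percentage points, Unigene25450_All 1.2, Unigene41422_All 0.981 and CL15970.Contig2_All 0.857, and 7 members made up 50% of the summed gains. After 24 h, CL15970.Contig2_All added 2.06 points and CL13428.Contig1_All 1.47, and 8 members made up 50%. In all, 57 members gained and 43 lost share at 1 h, and 69 gained and 31 lost at 24 h. Of all unigenes averaging 10 fragments or more per library, 21.9% had a log2 ratio above 0 at 1 h and 23.4% at 24 h. In ‘Reken501’, 6 members made up 50% of the summed gains at 1 h and 10 at 24 h. (Unigene25450_All was named after its values were seen.)

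The member of rank 1, CL15970.Contig2_All, had 33803, 38250 and 28408 fragments per M fragments of the library (FPM) in ‘Reken501’ and 21742, 30317 and 42356 in ‘93-114’. It was highest after 1 h in ‘Reken501’ and after 24 h in ‘93-114’, and it was the most-read unigene of every library except ‘93-114’ after 1 h. There it was passed by CL13428.Contig1_All, the member of rank 2, which had 19472, 25044 and 20813 FPM in ‘Reken501’ and 19227, 43143 and 33881 in ‘93-114’. The clones had nearly the same control level of CL13428.Contig1_All, with a log2 ratio of -0.02 (-0.02 to -0.01), while after 1 h the level of ‘93-114’ was 1.72-fold that of ‘Reken501’.

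The members of ranks 3 to 5 differed in steadiness. Unigene41422_All had 17700, 21301 and 16526 FPM in ‘Reken501’ and 14295, 24105 and 22603 in ‘93-114’. CL8639.Contig3_All had 15762, 17651 and 18477 in ‘Reken501’ and 14680, 19335 and 19295 in ‘93-114’, so that its highest library was 1.32-fold its lowest. Unigene23948_All stood at 5576, 5629 and 10013 in ‘Reken501’ and at 17834, 5535 and 9191 in ‘93-114’: the high library was control ‘93-114’, 3.2-fold above control ‘Reken501’, and after 1 h the levels of the clones were within 1.02-fold of each other on library totals. With the edgeR factors described below, every log2 ratio of ‘93-114’ to ‘Reken501’ after 1 h was 0.48 higher.

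A high share of fragments is not the same as a high level per length, since a long transcript yields more fragments. The members were 209 to 8908 bases long with a median of 2016 bases, against 1740 for the next 900 and 404 for all unigenes. In FPKM, which divides the FPM by the length in kilobases, their average control level ran from 160 to 26579 with a median of 1024, and 72 of the 100 were also among the 100 unigenes with the highest average control FPKM. Of the 12 members longer than 4000 bases, 3 were. Per length, the order of the first ranks was CL13428.Contig1_All with an FPKM of 26579 and a length of 728 bases, then CL15970.Contig2_All with 12149 and 2286 bases, and Unigene41422_All and CL8639.Contig3_All held the FPKM ranks 4 and 5 with 8117 and 7252. Unigene23948_All, 8085 bases long, was in place 35 with an FPKM of 1448.

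At the threshold, the last members were CL14631.Contig2_All with an average control share of 0.103% and Unigene12705_All with 0.0994%. The first unigenes left out were Unigene23681_All with 0.0990% and Unigene30952_All with 0.0979%. CL14631.Contig2_All and Unigene23681_All stood at this place through ‘Reken501’ alone: Unigene23681_All had 1847 FPM in control ‘Reken501’ and 133 in control ‘93-114’.

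Of the members, 88 were among the 100 most-read unigenes of control ‘Reken501’ and 89 among those of control ‘93-114’. The cold libraries of ‘Reken501’ held 86 (1 h) and 84 (24 h) of them in this list, and those of ‘93-114’ 76 and 77, and 59 members were in the list of every library. The lists of 100 made by the same rule from the libraries of 1 h and of 24 h shared 84 and 85 unigenes with the members. The 16 and 15 that entered came from close below, with 380 to 895 and 380 to 971 FPM on average at control and control places no further down than 229. The lists of the 100 most-read unigenes of the 2 clones shared 77 unigenes at control, 70 at 1 h and 78 at 24 h.

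Over the 6 libraries, the highest level of a member was 2.23-fold its lowest at the median. In 42 members it was under 2-fold, in 41 it was 2-fold to under 4-fold, and in 17 it was 4-fold or more, of which 5 reached 10-fold: CL14631.Contig2_All, CL518.Contig2_All, CL3477.Contig3_All, CL8191.Contig4_All and Unigene25586_All. The range was smallest in CL2911.Contig2_All, with 2335, 2031 and 2191 FPM in ‘Reken501’ and 2145, 1882 and 2394 in ‘93-114’, and next in CL8639.Contig3_All. Within ‘Reken501’, 88 members stayed under 2-fold over the 3 libraries with a median range of 1.34-fold, and within ‘93-114’ 72 did, with a median of 1.58-fold. These numbers rest on library totals: with the trimmed mean factors of edgeR (TMM), 23 members stayed under 2-fold over the 6 libraries, 40 within ‘93-114’ and 87 within ‘Reken501’, and CL8639.Contig3_All had a range of 2.11-fold. The range of CL2911.Contig2_All was then 1.73-fold and in place 14 of 100. The same counts for all unigenes are not given here, so whether the members were steadier than others is not shown.

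To compare libraries, the log2 ratio of the shares was taken with 0.5 fragments added, and a member is called higher or lower where the ratio is at least 2-fold. With 1 library on each side this is a rule of size without a p-value. Beside the counts of members called stands the percentage that passed the same rule, on the same scale, among the 90162 unigenes averaging 10 fragments or more per library. All 100 members passed that minimum.

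In ‘Reken501’ after 1 h of cold, 0 members were at least 2-fold higher than control and 3 were lower, against 8.71% higher and 11.5% lower among all unigenes compared. Of the next 900, 0.778% were higher and 5.0% lower, closer to the counts of the members. The median log2 ratio was 0.06 for the members, -0.05 for the next 900 and -0.08 for all. CL8191.Contig4_All had 3659, 181 and 1275 FPM in ‘Reken501’ and 134, 210 and 189 in ‘93-114’. It was high in control ‘Reken501’, 20.2-fold lower after 1 h (log2 ratio -4.33, -4.38 to -4.29) and in between after 24 h, and low in every library of ‘93-114’. CL3477.Contig3_All had 2096, 296 and 291 in ‘Reken501’ and 15.3, 22.5 and 13.4 in ‘93-114’, which makes it 7.07-fold lower after 1 h of cold in ‘Reken501’ and much lower in ‘93-114’ throughout. Both contigs were members through control ‘Reken501’ alone. Their ratios are taken against that same library, so the choice itself favours a lower ratio, which the intervals do not cover. The third was Unigene2029_All (log2 ratio -1.09), named after its values were seen, and the remaining 97 members were under 2-fold. With TMM, 1 member was higher and 2 were lower, against 9039 and 8837 of the 90162 unigenes.

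In ‘Reken501’ after 24 h, 4 members were higher and 6 lower, against 13.4% and 13.9% of all unigenes. Of the unigenes next in rank, 2.22% were higher and 9.11% lower. The median log2 ratio was 0.14 for the members and -0.11 for all. CL14452.Contig2_All had 1342, 1251 and 3708 FPM in ‘Reken501’ and 2102, 1849 and 3724 in ‘93-114’. It was high after 24 h in both clones and 2.76-fold above control in ‘Reken501’ (log2 ratio 1.47, 1.45 to 1.49). CL518.Contig1_All had 781, 673 and 1746 in ‘Reken501’ and 2244, 6019 and 4079 in ‘93-114’, so the highest library of ‘Reken501’ was below the lowest of ‘93-114’. CL15889.Contig1_All and Unigene12705_All were the other members that were higher. The lowest ratios were those of Unigene25586_All (log2 ratio -3.10, -3.16 to -3.05) and of CL3477.Contig3_All (-2.85, -2.88 to -2.81).

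In ‘93-114’ after 1 h, 15 members were higher and 5 lower than control, against 5.95% and 35.1% of all unigenes. Of the next 900, 6.67% were higher and 15.3% lower. The median log2 ratio was 0.13 for the members, -0.41 for the next 900 and -0.68 for all unigenes, so the median member had a slightly larger share than at control and the median unigene a smaller one. The choice of scale sets where 0 lies. TMM raised every log2 ratio of this comparison by 0.68, which put the median of all unigenes at 0.01 and that of the members at 0.81, with 42 members higher and 3 lower, against 14.3% and 12.8% of all unigenes. The difference between the 2 medians is the same under any such scale.

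Unigene12214_All had the largest ratio, with 1512, 8432 and 5869 FPM in ‘93-114’ against 1196, 1225 and 1900 in ‘Reken501’. In ‘93-114’ it was 5.58-fold higher after 1 h (log2 ratio 2.48, 2.46 to 2.50), and both cold libraries of ‘93-114’ were above the other 4. Unigene12705_All, with 1136, 5191 and 3909 in ‘93-114’ and 853, 843 and 1873 in ‘Reken501’, was 4.57-fold higher after 1 h in ‘93-114’ and 1.01-fold lower in ‘Reken501’. The lowest ratios were those of Unigene25586_All and Unigene2081_All, and the other members that were lower were Unigene23948_All and, named after their values were seen, CL6856.Contig6_All and CL1653.Contig1_All. Unigene2081_All had 2004, 1360 and 499 in ‘Reken501’ and 1839, 284 and 568 in ‘93-114’: its controls were close, its lowest library of ‘93-114’ was that of 1 h, and its lowest of ‘Reken501’ was that of 24 h.

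The 15 members that were at least 2-fold higher in ‘93-114’ after 1 h had log2 ratios of 1.06 to 2.48 there. In ‘Reken501’ the same 15 had ratios of -0.42 to 0.37 after 1 h and of -0.34 to 1.16 after 24 h, and 2 of them were at least 2-fold higher after 24 h. At 1 h no member at all was 2-fold higher in ‘Reken501’, so by necessity 0 of the 15 were called higher there at 1 h. After 24 h in ‘93-114’ their ratios to control were 0.65 to 1.96. These values share the control libraries and describe the 15, which were picked by their ratio at 1 h. Among the 15 are 9 contigs of clusters, and contigs of the same cluster may stem from the same gene.

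In ‘93-114’ after 24 h, 9 members were higher and 6 lower than control, against 7.58% and 36.8% of all unigenes. Of the next 900, 5.11% were higher and 17.1% lower. The median log2 ratio was 0.33 for the members, -0.30 for the next 900 and -0.70 for all. Unigene12214_All (log2 ratio 1.96, 1.94 to 1.97) and Unigene12705_All (1.78, 1.76 to 1.80) were again highest, and Unigene25586_All (-1.99, -2.02 to -1.95) and Unigene2081_All (-1.70, -1.73 to -1.67) lowest. Of the 15 called members, 2 had an interval that crossed 2-fold. With TMM, 45 members were higher and 3 lower, against 15.2% and 15.6% of all unigenes, and the medians were 0.96 for the members and -0.07 for all unigenes.

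**Figure D2:**
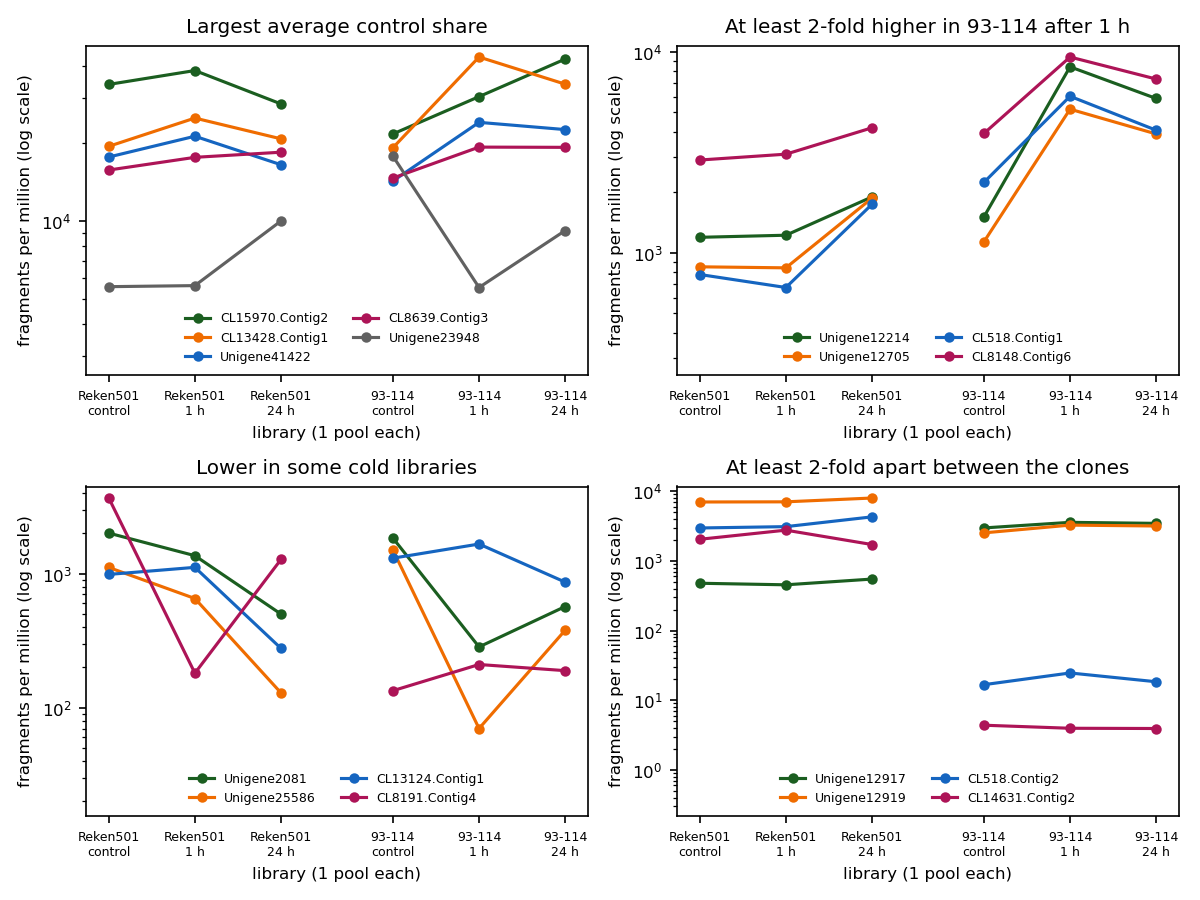
Levels in FPM (vertical axes, log scale) of 17 members in the 6 libraries, 1 point per library, lines joining the libraries of a clone; CL8148.Contig6_All and Unigene12919_All were added after their values were seen. Unigene12214_All reaches 8432 after 1 h of cold in ‘93-114’ and 1225 in ‘Reken501’, while Unigene25586_All is lowest at 70.0 after 1 h in ‘93-114’ and at 129 after 24 h in ‘Reken501’.

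The ratios to control of the clones share no library and can be set against each other. At 1 h, 0 members were at least 2-fold higher in both clones, 0 were lower in both and 0 were apart in opposite directions, against 1.23%, 4.82% and 3.58% of all unigenes, and 60 had the same sign, against 60.8% of the next 900 and 55.5% of all unigenes. Of the next 900, 1 was higher in both, 16 were lower in both and 16 were opposite. At 24 h, 1 member was higher in both, 3 were lower in both and 0 were opposite, against 4.27%, 8.19% and 2.56% of all unigenes, and 67 had the same sign, against 69.3% of the next 900 and 63.8% of all unigenes. Of the next 900, 9 were then higher in both, 55 lower in both and 3 opposite. The member higher in both was Unigene12705_All. The 3 lower in both were Unigene25586_All, Unigene2081_All and Unigene25643_All, the last of which was named after its values were seen: it had 1023, 930 and 417 FPM in ‘Reken501’ against 1241, 627 and 386 in ‘93-114’.

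**Figure D3:**
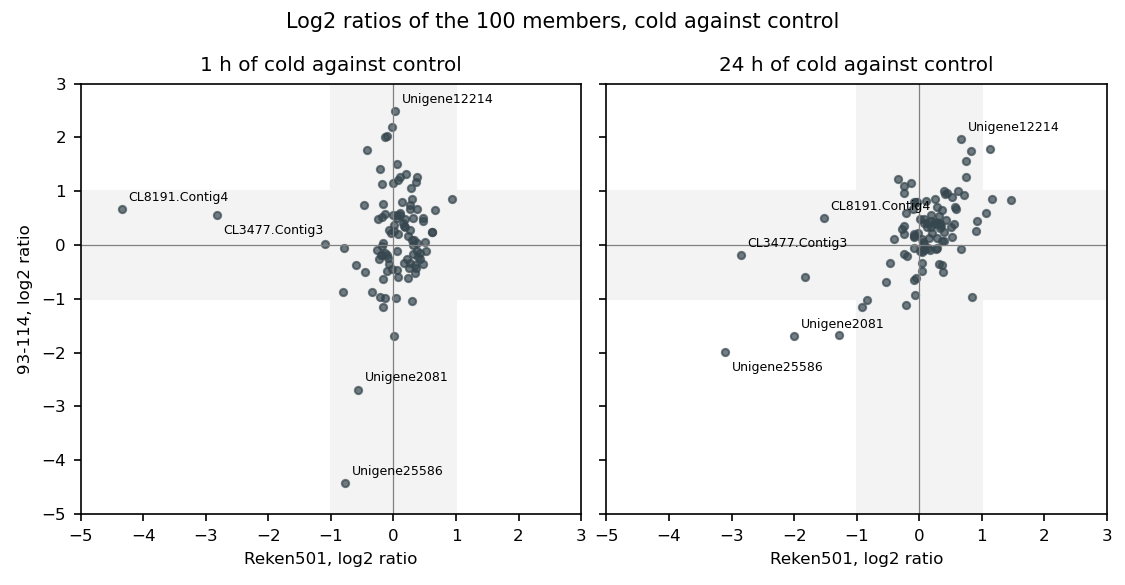
Log2 ratios of the 100 members, cold against control, in ‘Reken501’ (horizontal) and ‘93-114’ (vertical), at 1 h and 24 h; each point is a member and the grey bands mark less than 2-fold. At 1 h the points spread along the vertical axis, from -4.42 to 2.48, with few beyond 2-fold on the horizontal one, where CL8191.Contig4_All lies at -4.33.

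The next comparisons used cold libraries alone, which had no part in choosing the members. They are still not independent of the choice where a member was high in 1 control library only, as CL8191.Contig4_All was. In ‘Reken501’, 5 members were at least 2-fold higher and 4 lower after 24 h than after 1 h, against 12.9% and 9.08% of all unigenes. Of the unigenes next in rank, 3.33% were higher and 3.11% lower. The largest ratios were those of CL8191.Contig4_All (log2 ratio 2.81, 2.76 to 2.86) and CL14452.Contig2_All (1.57, 1.55 to 1.59), and the smallest those of Unigene25586_All (-2.33, -2.39 to -2.28) and CL13124.Contig1_All (-2.01, -2.05 to -1.97). CL13124.Contig1_All had 986, 1113 and 277 FPM in ‘Reken501’ and 1303, 1661 and 864 in ‘93-114’, with the lowest library of each clone at 24 h. The other calls were CL518.Contig1_All, Unigene12705_All and CL2819.Contig2_All, higher, and Unigene2081_All and Unigene25643_All, lower. CL2819.Contig2_All was named after its values were seen.

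In ‘93-114’, 3 members were higher and 0 lower after 24 h than after 1 h, against 11.9% and 10.2% of all unigenes. Of the unigenes next in rank, 1.44% were higher and 1.33% lower, closer to the counts of the members. Unigene25586_All had the largest ratio (log2 ratio 2.43, 2.35 to 2.51), followed by CL15889.Contig1_All (1.02, 1.01 to 1.03) and CL14452.Contig2_All (1.01, 0.99 to 1.03), whose interval crossed 2-fold. With TMM, 1 member was higher and 0 lower, against 11.1% and 11.2%. CL15889.Contig1_All, 8908 bases long, had 6382, 7590 and 13439 in ‘Reken501’ and 6998, 5187 and 10532 in ‘93-114’, so that 24 h was the highest library of both clones. The median log2 ratio of the members was 0.05 in ‘93-114’ and 0.09 in ‘Reken501’, and 97 and 91 members were under 2-fold.

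Unigene25586_All had 1111, 652 and 129 FPM in ‘Reken501’ and 1498, 70.0 and 378 in ‘93-114’. All 4 cold libraries were below both controls. Its low point was at 24 h in ‘Reken501’, 8.59-fold below control, and at 1 h in ‘93-114’, 21.4-fold below control (log2 ratio -4.42, -4.50 to -4.34).

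Between the clones at control, which the rule used, 12 members were at least 2-fold higher in ‘93-114’ and 9 lower, against 21.3% and 15.1% of all unigenes. Of the next 900, 10.1% were higher and 10.1% lower. The medians were 0.08 for the members and 0.11 for all. With TMM the numbers of members were 8 and 9, against 19.1% and 17.0% of all unigenes. Of the calls, 1 at control and 1 after 1 h of cold had an interval that crossed 2-fold. After 1 h of cold, 24 members were higher and 9 lower in ‘93-114’, against 14.7% and 32.6% of all unigenes. Of the next 900, 13.0% were higher and 20.8% lower. The medians were -0.03 for the members, -0.42 for the next 900 and -0.50 for all. With TMM, 31 members were higher and 5 lower, against 21.7% and 19.7% of all unigenes. After 24 h, 19 members were higher and 5 lower, against 11.2% and 29.6% of all unigenes. Of the next 900, 10.6% were higher and 13.2% lower. The medians were 0.14, -0.29 and -0.49. With TMM, 35 members were higher and 4 lower, against 17.9% and 17.8% of all unigenes. The 5 lower members were the 4 that were lower at every time and CL8191.Contig4_All. CL8191.Contig4_All, CL518.Contig2_All, CL3477.Contig3_All and CL14631.Contig2_All were members through control ‘Reken501’, with 134, 16.7, 15.3 and 4.37 FPM in control ‘93-114’. Their lower level in cold ‘93-114’ is therefore not independent of the choice. Unigene12917_All, in turn, was far higher in control ‘93-114’.

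Over the 3 times, 6 members were at least 2-fold higher in ‘93-114’ at each, 4 were lower at each (Unigene12919_All, CL518.Contig2_All, CL3477.Contig3_All and CL14631.Contig2_All), and 54 were under 2-fold at each, against 6.06%, 8.44% and 29.5% of all unigenes. A further 9 were higher in ‘93-114’ at both cold times but not at control, against 1.73% of all unigenes. With TMM this number was 23, against 4.41%. Unigene12917_All had 478, 454 and 549 FPM in ‘Reken501’ and 2979, 3583 and 3465 in ‘93-114’. Every library of ‘93-114’ was thus above every library of ‘Reken501’, by 6.23-fold at control, 7.89-fold at 1 h and 6.32-fold at 24 h. On library totals, its log2 ratios of cold to control within each clone lay between -0.07 and 0.27. TMM raised every such ratio of ‘93-114’ by 0.68 at 1 h and 0.63 at 24 h. The largest ratio at 1 h was that of CL518.Contig1_All, 8.95-fold higher in ‘93-114’ (log2 ratio 3.16, 3.14 to 3.19), and the second largest at 24 h was that of CL14631.Contig1_All, 3.42-fold higher (1.77, 1.75 to 1.79).

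**Figure D4:**
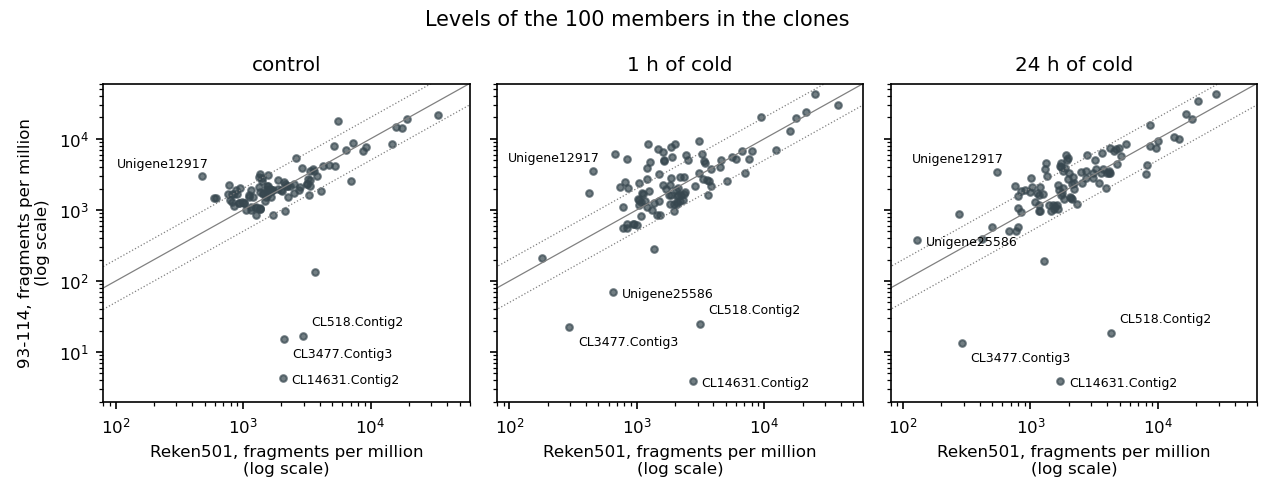
Levels of the 100 members in ‘Reken501’ (horizontal) and ‘93-114’ (vertical), in FPM on log scales, in the 3 treatments; the solid line marks equal levels and the dotted lines 2-fold. CL14631.Contig2_All and CL518.Contig2_All lie far below the line at each time, with 4.37 and 16.7 FPM in control ‘93-114’.

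The lowest ratios between the clones belonged to contigs of clusters. A cluster is a group of assembled sequences that resemble each other and can be variants of 1 gene or members of a family. Of the members, 66 of 100 are contigs of 52 clusters, against 60.8% of the next 900 and 40.7% of all unigenes, and 9 clusters hold 23 of the members. The study's methods name Bowtie2 and RSEM for genes of the rubber tree genome, while the deposited tables list assembled unigenes, and how fragments that fit several contigs were counted for these is not given in the sources used here. For this reason the levels of single contigs of a cluster are uncertain where the sequences are alike.

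CL14631.Contig2_All had 43440, 59303 and 37157 fragments in ‘Reken501’ and 89, 84 and 86 in ‘93-114’, which is 466-fold lower in ‘93-114’ at control (log2 ratio -8.86, -9.19 to -8.57), 696-fold at 1 h and 436-fold at 24 h. The only other contig of this cluster, CL14631.Contig1_All, had 33338, 46637 and 28720 fragments in ‘Reken501’ and 43496, 61823 and 99667 in ‘93-114’. So ‘Reken501’ had many fragments on both contigs and ‘93-114’ on 1 of them. On library totals the whole cluster differed by less than 2-fold between the clones at each time, with log2 ratios (‘93-114’ over ‘Reken501’) of -0.76, -0.76 and 0.58. TMM shifted every such ratio by -0.11 at control, 0.48 at 1 h and 0.44 at 24 h, which put this cluster just above 2-fold at 24 h.

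CL518 showed a like picture. CL518.Contig2_All had 63094, 66622 and 92784 fragments in ‘Reken501’ and 339, 523 and 403 in ‘93-114’, and CL518.Contig1_All had 16577, 14415 and 37715 in ‘Reken501’ and 45675, 127873 and 89435 in ‘93-114’. The first was 178-fold lower in ‘93-114’ at control and the second 2.87-fold higher. Over the whole cluster the log2 ratios were -0.73, 0.68 and -0.55.

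In CL3477 and CL8191 the contig that stood high in ‘93-114’ was no member, and these partner contigs were named after their values were seen. CL3477.Contig3_All, the member, had 44466, 6352 and 6293 fragments in ‘Reken501’ and 311, 479 and 293 in ‘93-114’, whereas CL3477.Contig2_All had 1474, 436 and 295 in ‘Reken501’ and 10260, 31039 and 19540 in ‘93-114’. Summed over CL3477, the log2 ratios between the clones were -2.06, 2.22 and 1.57, so here the sum itself was lower in ‘93-114’ at control and higher in the cold. CL8191.Contig5_All had 3927, 2436 and 1256 fragments in ‘Reken501’ and 8722, 20055 and 18086 in ‘93-114’, and the cluster's log2 ratios on library totals were -2.76, 1.91 and -0.38.

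**Figure D5:**
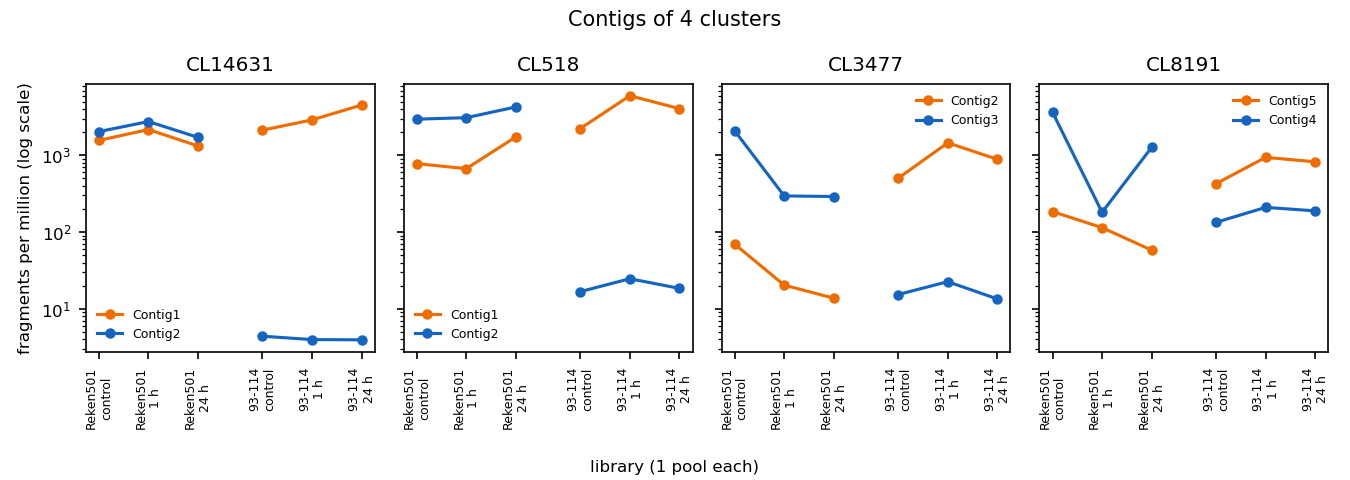
Levels in FPM (vertical axis, log scale) of 2 contigs in each of 4 clusters, over the 6 libraries of 1 pool each, with lines joining the libraries of a clone. In CL14631 the contigs lie together in ‘Reken501’ and apart in ‘93-114’, where Contig2 is at 3.92 to 4.37; in the other 3 clusters the contig that is higher in ‘Reken501’ is the lower one in ‘93-114’.

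CL8148 holds the most members, and CL9005 and CL16035 follow with 3 each; the 3 clusters were chosen for description after their values were seen. Of the 9 contigs of CL8148, 5 are members, and the cluster had 11948, 12951 and 17146 FPM in ‘Reken501’ and 14602, 34051 and 26434 in ‘93-114’. It was highest after 24 h in ‘Reken501’ and after 1 h in ‘93-114’, where its log2 ratio to control was 1.22, against 0.12 in ‘Reken501’. CL9005, with 3 members among 8 contigs, had 5725, 6235 and 6019 in ‘Reken501’ and 6976, 15986 and 12337 in ‘93-114’. Its log2 ratio to control after 1 h was 1.20 in ‘93-114’ and 0.12 in ‘Reken501’. CL16035, with 6 contigs, had 3174, 3685 and 4210 in ‘Reken501’ and 4947, 6508 and 6351 in ‘93-114’. Its ratios after 1 h were 0.40 in ‘93-114’ and 0.22 in ‘Reken501’. These cluster ratios are on library totals. TMM raised every log2 ratio to control after 1 h by 0.68 in ‘93-114’ and by 0.1 in ‘Reken501’, which put CL16035 above 2-fold in ‘93-114’.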

How the data were processed

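Leaf RNA of the 6 libraries was sequenced on an Illumina HiSeq instrument by the study, which describes removal of adapter and low-quality reads. The authors deposited 4 tables with whole-number fragment counts per unigene, not normalized, and the library totals in the column headings. The deposited FPKM equals the count per kilobase and per M fragments to within 5.0e-05. The study's methods describe HISAT, Bowtie2 and RSEM on genome genes, and the assembly and counting of these unigenes are not given in the sources used here. The tables also hold the authors' log2 ratio, up or down call, p-value and false discovery rate, which were not used.

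Counts were joined by unigene ID, and the shared control columns differed in 0 values. Each count was divided by its library total. Log2 ratios used 0.5 added fragments, and intervals are exact conditional binomial (ratios) or Wilson (shares) at the 95% level, covering counting error only. The code was tested on simulated data. Members and lists were chosen with earlier results of these data known. The unigenes named are the 5 of highest average control share, up to 2 higher and 2 lower at 2-fold or more in each of 9 comparisons, those of ranks 99 to 102, and those of smallest and largest range; other names are marked in the text. Alternatives were edgeR 4.0.16 TMM factors and DESeq2 1.42.0 size factors (R 4.3.3), totals without the members, members chosen by FPKM or from 1 clone, contigs summed per cluster, and no minimum count. Python 3.11.15, numpy 2.4.6, pandas 2.3.3, scipy 1.17.1 and matplotlib 3.10.9 were used.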

Additional observations from a re-analysis of the deposited data

Results flagged for a closer look

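Unigene25586_All was picked out because it was at least 2-fold apart in opposite directions under the same contrast in different groups. Its log2 ratio of 24 h to 1 h of cold was -2.33 in ‘Reken501’ and 2.43 in ‘93-114’. Between the clones, ‘93-114’ over ‘Reken501’, the log2 ratio was -3.22 at 1 h and 1.55 at 24 h. These are the same 4 libraries read in 2 ways, and the difference was not tested, since each condition has 1 library.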

How the results depend on the processing

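Summing contigs per cluster turned the direction of some called members between the clones. After 1 h of cold the log2 ratio (‘93-114’ over ‘Reken501’) was -3.72 for CL3477.Contig3_All and 2.22 for its cluster. For CL518.Contig2_All it was -6.98 and for its cluster 0.68. After 24 h it was -8.77 for CL14631.Contig2_All and 0.58 for its cluster. Members' shares at control, 1 h and 24 h in ‘Reken501’ and then in ‘93-114’ were 29.6, 32.8, 33.3, 28.4, 39.7 and 40.4% with members chosen by FPKM. Chosen from control ‘Reken501’ alone they were 32.2, 34.8, 35.2, 29.3, 39.4 and 40.3%, from control ‘93-114’ alone 30.1, 33.2, 33.9, 31.4, 42.9 and 43.2%, and with contigs summed per cluster 34.7, 37.5, 38.6, 34.4, 46.7 and 46.9%. The shares were higher in both cold libraries than at control in each clone under every choice.

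Scaling moved the comparisons with cold ‘93-114’ most. For ‘93-114’ after 1 h against control, the members higher and lower were 42 and 3 with TMM, 42 and 2 with DESeq2 and 19 and 3 with totals without the members, and the medians were 0.81, 0.83 and 0.38. The shares of all unigenes, higher and lower, were 14.3% and 12.8%, 14.5% and 12.6%, and 8.12% and 25.2%. After 24 h the members higher and lower were 45 and 3, 51 and 1, and 22 and 3, with medians of 0.96, 1.03 and 0.58. The shares of all unigenes were then 15.2% and 15.6%, 16.4% and 13.7%, and 9.91% and 26.5%. For ‘93-114’ against ‘Reken501’ at 1 h, 5 members were lower under each of the 3 scalings, against 19.7%, 19.7% and 27.4% of all unigenes. The medians were 0.45 with TMM and 0.46 with DESeq2. At 24 h, 35 were higher with TMM and 36 with DESeq2, against 17.9% and 19.2% of all unigenes, with medians of 0.58 and 0.65. In ‘Reken501’ at 1 h, 1 member was higher with TMM and with DESeq2. Of all unigenes, 9039 of 90162 were higher with TMM and 9.91% with DESeq2. In ‘93-114’ at 24 h against 1 h, 1 was higher with TMM, against 11.1% of all unigenes.

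In both clones at 1 h, 1 member was higher and 2 were opposite with TMM and with DESeq2. At 24 h, 5 were higher in both with either and 3 with totals without the members, 1 was lower in both with DESeq2, and 1 was opposite with TMM and with DESeq2. For these counts in both clones, the shares of all unigenes on the same scales are not given here. Scalings of 2 further results were added after seeing the data: 23 members stayed under 2-fold over the 6 libraries and 40 over those of ‘93-114’ with TMM and with DESeq2, and 23 were at least 2-fold higher in ‘93-114’ after 1 h and 24 h but not at control. For the last count the share of all unigenes was 4.41% with TMM.

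With members chosen by FPKM, 1 was lower in ‘Reken501’ at 1 h and 3 at 24 h, 2 were lower in ‘93-114’ at 24 h, and 3 were higher in ‘Reken501’ at 24 h against 1 h. In the same order, the shares of all unigenes were 11.5%, 13.9%, 36.8% and 12.9%. With contigs summed per cluster, 2 were lower in ‘93-114’ in the clone comparison at 24 h, and the share over all such sums is not given here. With no minimum count, 9 of the 18 percentages of all unigenes moved by over 1.5 times, up to 24.4% for ‘Reken501’ at 24 h, higher. Causes of these moves beyond the construction of each alternative were not tested. No paired analysis was possible because every group compared has 1 library, so the groups share a single replicate number, and for the same reason no replicate could be left out. A fit that takes the clones as replicates of a treatment was not run. Depth limits little here: 3 members had under 1000 fragments in a library.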

Other observations

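Some members outside clusters carry close numbers in their IDs, in 3 sets chosen after their values were seen. Unigene12699_All, Unigene12701_All and Unigene12705_All had log2 ratios to control of 2.01 to 2.19 in ‘93-114’ and of -0.14 to -0.02 in ‘Reken501’ after 1 h of cold. After 24 h the ranges were 1.56 to 1.78 and 0.74 to 1.13. The 6 members from Unigene41412_All to Unigene41428_All, among them Unigene41422_All, were less alike after 1 h, with ratios to control of 0.26 to 1.76 in ‘93-114’ and of -0.42 to 0.27 in ‘Reken501’. Unigene12917_All, Unigene12918_All and Unigene12919_All differed between the clones in unlike directions, with log2 ratios of ‘93-114’ to ‘Reken501’ at control from -1.47 to 2.64.

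CL12563.Contig1_All, also chosen after its values were seen, had 3507, 6742 and 4673 FPM in ‘Reken501’ and 3707, 6732 and 7113 in ‘93-114’. On library totals the clones were thus level at control and after 1 h, and ‘Reken501’ was lower after 24 h.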
